A study of Arabidopsis thaliana with 16 samples.

Results

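The ethylene effect that remained in roots lacking EIN3 and EIL1 was taken as the mean of the ethylene effects, ethylene minus untreated, of 2 Arabidopsis thaliana mutants. These were the double mutant ein3eil1 and the quadruple mutant ein3eil1rhd6rsl1, with 4 libraries a side, or 8 of the 16 libraries of the series. Plants were raised upright on MS medium to 6 d, then kept for 4 h with 10 ppm ethylene or without it, and polyadenylated root RNA was sequenced from 2 biological replicates of each genotype and treatment. The other 8 libraries came from Col-0, the wild type, and from rhd6rsl1, both of which keep EIN3 and EIL1, under the same treatments. All 4 groups of the averaged effect carry mutations in EIN3 and EIL1, and the quadruple mutant also in RHD6 and RSL1; which alleles these are is not stated by the labels. The question is which transcripts ethylene moves when the main transcription factors of its pathway are missing.

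Ethylene binds receptors at the endoplasmic reticulum, which then stop activating the kinase CTR1, so that a fragment of EIN2 reaches the nucleus and the transcription factors EIN3 and EIL1 accumulate. The F-box proteins EBF1 and EBF2 mark EIN3 and EIL1 for degradation, and EBF2 is itself a target of EIN3, which closes a feedback loop. In the root, ethylene shortens growth and promotes root hairs, the tubular outgrowths of epidermal cells, whose formation is started by the bHLH factors RHD6 and RSL1.

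Each deposited file has a code letter in its name, either S or Z, and no label explains it. In ein3eil1 the ethylene libraries carry S and the untreated ones Z, and in the quadruple mutant the letters are the other way round. A difference between S and Z that adds equally on the log scale in both genotypes therefore cancels in the averaged effect. It doubles when the effect in one genotype is subtracted from the other, where it cannot be told apart from an influence of RHD6 and RSL1. The libraries of the series held 33.0 M to 45.0 M assigned reads, and replicates correlated across loci at r = 0.984 to 0.992. The first principal component of the 8 libraries, with 59.3% of the variance, separated the genotypes. The 22 photosynthesis genes listed as shoot markers were summed in CPM, which are read counts scaled to the size of the library. The sum was 2070 CPM in replicate 1 of the ethylene-treated quadruple mutant. It was 393 to 562 CPM in the other 7 libraries, with 3 genes without a read in 1 library and 1 in another. Outside these 8 libraries, ethylene-treated Col-0 replicate 1 also stood high, at 1310 CPM. The remaining libraries of Col-0 and rhd6rsl1 held 318 to 639 CPM. That high Col-0 library is part of the average with EIN3 and EIL1 used below for comparison. Markers of root tissues were present throughout: the endodermal factor SCR stood at 50.8 to 84.7 CPM, the root cap factor SMB at 7.09 to 11.1 CPM and the auxin carrier PIN2 at 202 to 236 CPM. Each library is a bulk root extract, in which fewer cells of a type and less RNA per cell cannot be told apart.

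The targeted genes were read in every library first. Reads of EIN3 (AT3G20770) came to 28.7 to 41.6 CPM in ein3eil1 and the quadruple mutant, against 148 to 185 CPM in Col-0 and rhd6rsl1. EIL1 (AT2G27050) stood at 12 to 29.7 CPM against 61.3 to 75.6 CPM. RHD6 (AT1G66470) was at 18.1 to 21.7 CPM in ein3eil1 and at 6.48 to 8.85 CPM in the quadruple mutant, and RSL1 (AT5G37800) at 5.23 to 5.93 and 1.83 to 2.04 CPM. The levels follow the genotype labels with no overlap. Transcripts read from a mutated gene may not be functional. Averaged over both genotypes, ethylene raised the reads of EIL1 by 0.26 ± 0.076 on the log2 scale (approximate standard error, edgeR adjusted p = 0.045). That call was lost in 8 of 13 alternatives, among them the omission of treated ein3eil1 replicate 1 (0.25, adjusted p = 0.145) and of treated quadruple replicate 2 (0.24, adjusted p = 0.147).

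Of 22304 loci tested, 1760 were called at an adjusted p below 0.05 in the averaged effect, or 7.89%, from edgeR's quasi-likelihood test on all 16 libraries with Benjamini-Hochberg adjustment. The 741 rises made up 3.32% and the 1019 falls 4.57% of the loci tested. The effects were small: 99 of the called loci reached 2-fold, 69 up and 30 down. The same average over Col-0 and rhd6rsl1, which shares no library with it, gave 9210 calls (41.3%), with 4222 rises (18.9%) and 4988 falls (22.4%), and 2041 of them reached 2-fold. Both averages differed from each other at 5914 loci (26.5%).

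The count depended on single libraries. It was 209 without untreated ein3eil1 replicate 1, 232 without treated ein3eil1 replicate 1, 473 without untreated quadruple replicate 2, 631 without treated quadruple replicate 2, 1006 without treated ein3eil1 replicate 2 and 4145 without untreated quadruple replicate 1. The other two omissions gave 1492 and 1271. A core of 177 loci, 53 up and 124 down, was called in the same direction whichever of the 8 libraries was left out. In that core the median size of the effect was 0.55 on the log2 scale, 147 loci had the same sign in both genotypes, and 113 showed no overlap of treated and untreated libraries in either genotype. Of the 177 loci, 126 were also called in the same direction in the average with EIN3 and EIL1, 12 in the opposite direction and 39 were not called there.

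The core is to be read beside the shares over all loci tested. Of these, 41.3% were called in the average with EIN3 and EIL1, and 45.1% had the same sign in both genotypes. No overlap in both genotypes was seen upward at 5.53% and downward at 5.55%. Keeping only loci called in every omission by itself raises the shares of equal sign and of no overlap in the core. Both genotypes did not contribute alike. Tested within each genotype in the fit of all 16 libraries, ein3eil1 gave 139 calls (0.623%) and the quadruple mutant 5323 (23.9%). These counts depended on the fit: with the groups of each genotype compared alone they were 1279 and 2602. The median absolute effect of the 1760 loci was 0.16 in ein3eil1 and 0.60 in the quadruple mutant, against 0.15 and 0.25 over all loci tested. The difference between both effects was itself called at 3791 loci (17.0%), among them 831 of the 1760. The sign was the same in both genotypes for 1279 of the called loci (72.7%) and for 45.1% of all loci, a share that the averaging itself raises among called loci. Across 13792 loci at 5 CPM or more in every library, the effects of both genotypes correlated at r = -0.18, and across all loci tested at r = -0.09. Both values are descriptions, as the points share each genotype's 4 libraries and the file letters run in opposite directions. Treated libraries lay above untreated ones in both genotypes at 1234 loci (5.53%) and below them at 1238 (5.55%), and of the 1760 called loci 806 were of these 2 kinds, 364 up and 442 down.

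**Figure D1:**
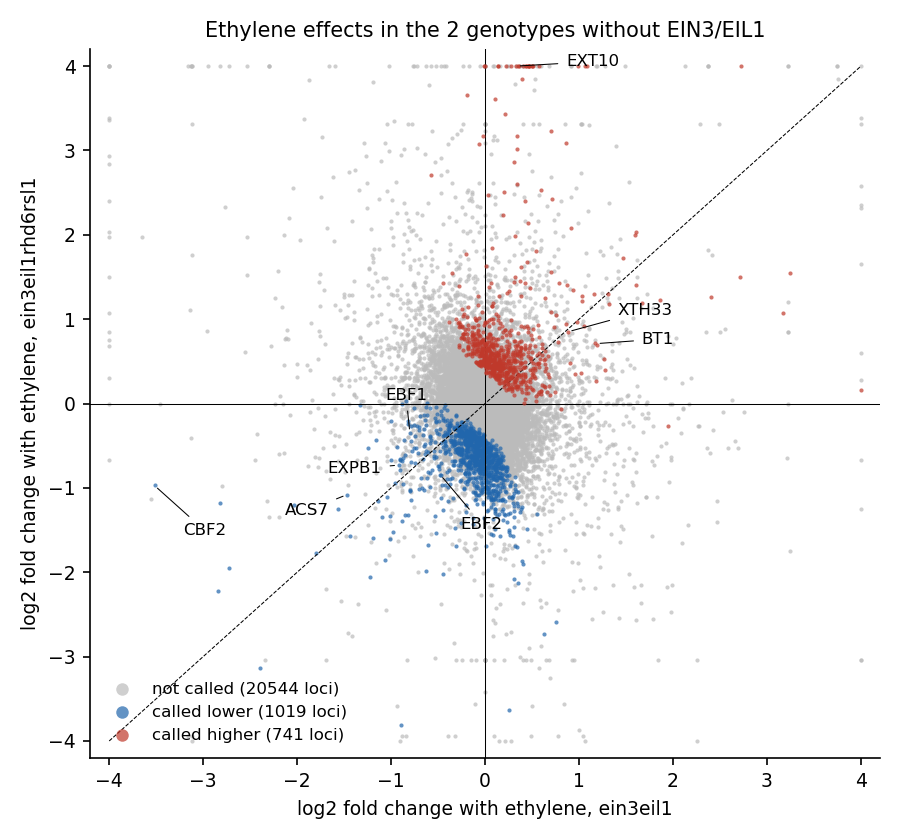
Log2 fold change with ethylene in ein3eil1 (x axis) and in ein3eil1rhd6rsl1 (y axis) for each of 22304 loci, drawn at 4 where larger in size, with equal effects on the dashed line. The 741 loci called higher and the 1019 called lower in the averaged effect are coloured; their median absolute effect is 0.60 on the y axis and 0.16 on the x axis.

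The regulators of EIN3 themselves fell with ethylene in its absence. EBF1 (AT2G25490), an F-box gene whose product marks EIN3 for degradation, went from 59.1 and 54.6 CPM in untreated ein3eil1 to 32.9 and 32.5 CPM with ethylene, and from 54.7 and 49.3 to 39.9 and 41.6 CPM in the quadruple mutant. EBF2 (AT5G25350), its paralog and a textbook target of EIN3, went from 20.7 and 16.3 to 12.5 and 13.9 CPM in ein3eil1 and from 23.4 and 22 to 12.6 and 12.8 CPM in the quadruple mutant. In both genotypes every treated library lay below every untreated one. EBF1 fell by 0.58 ± 0.058 and EBF2 by 0.66 ± 0.075 on the log2 scale (edgeR adjusted p = 3.9e-05 and 0.00011). With EIN3 and EIL1 present both genes rose instead, EBF1 by 0.48 ± 0.056 and EBF2 by 1.44 ± 0.068, so that both averages differed by -1.06 ± 0.08 and -2.1 ± 0.1. The starting levels also differed: EBF2 stood at 101 and 106 CPM in untreated Col-0.

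ACS7 (AT4G26200), which encodes an ACC synthase of the first committed step of ethylene production, fell in the same way at a low level. Its values were 3.86 and 2.95 CPM untreated and 1.48 and 0.957 CPM with ethylene in ein3eil1, and 2.44 and 3.03 against 1.3 and 1.27 CPM in the quadruple mutant. The averaged fall was 1.28 ± 0.18 (adjusted p = 0.00093), and with EIN3 and EIL1 the effect of 0.32 ± 0.16 was not called (adjusted p = 0.12). EBF1, EBF2 and ACS7 kept their calls in all 13 alternatives.

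Across the ethylene lists the called shares lay near the 7.89% of all loci, at 11.1% for signalling and feedback, 7.14% for transcription factors and 7.69% for biosynthesis, so their counts do not set the lists apart. Of 18 signalling and feedback genes 0 rose and 2 fell, EBF1 and EBF2, with a median of 0.06, against 0.81 in the average with EIN3 and EIL1 and 0.007 over all loci. The receptor genes ETR2 and ERS2, the receptor regulator RTE1 and the growth gene ARGOS had averaged effects of -0.22, -0.20, 0.13 and 0.18, where Col-0 and rhd6rsl1 gave 2.2, 2.1, 2.73 and 5.21. Among 14 ethylene-responsive transcription factor genes 0 rose and 1 fell, RAV2 (-0.33 ± 0.078, adjusted p = 0.019), with a median of 0.07 against 1.11. RAV2 lost its call in 6 of 13 alternatives (highest adjusted p = 0.112, without untreated ein3eil1 replicate 1). Among 13 of 14 ethylene biosynthesis genes that passed the filter on low counts, ACS7 was the 1 call. The ACC oxidase genes ACO1 and ACO4 had effects of 0.09 and -0.03, against 2.54 and 1.18 with EIN3 and EIL1.

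Across the whole response, 981 loci rose at least 2-fold in the average with EIN3 and EIL1, by a median of 1.85. In the average without them the median of these loci was 0.19, with 111 called higher and 2 lower. The 1060 loci that fell at least 2-fold, by a median of 1.52, had a median of -0.05, with 31 called higher and 108 lower. Over all loci tested, 3.32% were called higher and 4.57% lower without EIN3 and EIL1. Calls in the same direction were thus more frequent among these loci than among all, though the medians were small. At a mean of 5 CPM or more in the 8 libraries, the medians without EIN3 and EIL1 were 0.21 over 284 rises and -0.04 over 574 falls. These loci were picked by their size in the average with EIN3 and EIL1, which by itself makes their medians larger there. Over all loci tested, the median absolute averaged effect was 0.14 without and 0.23 with EIN3 and EIL1. Across all loci tested both averages correlated at r = 0.29, and across the 13792 loci at 5 CPM or more in every library at r = 0.21, as a description.

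**Figure D2:**
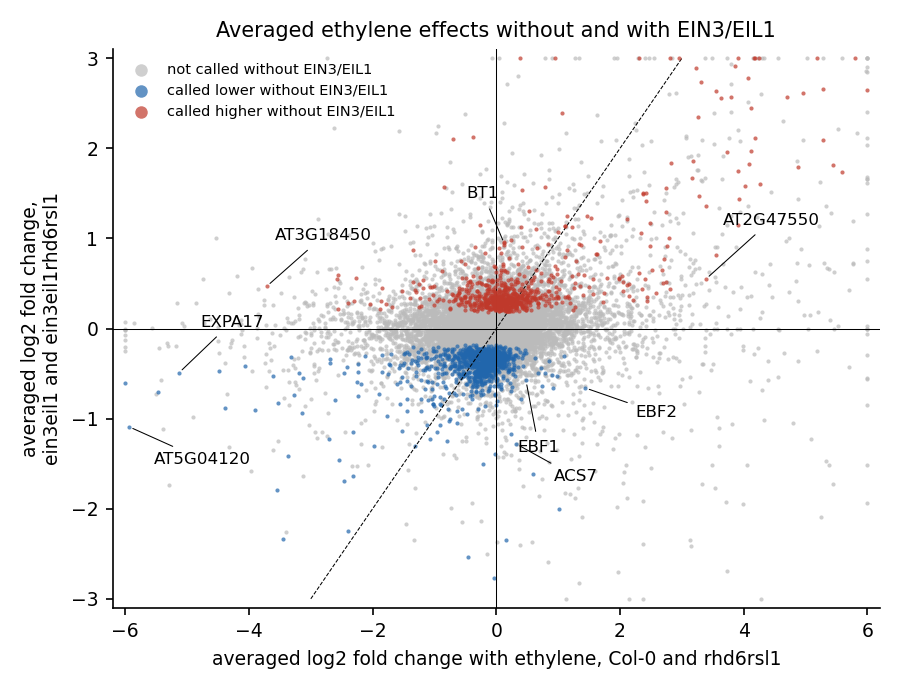
Averaged log2 fold change with ethylene in Col-0 and rhd6rsl1 (x axis, drawn at 6 where larger in size) and in ein3eil1 and ein3eil1rhd6rsl1 (y axis, drawn at 3 where larger) for each locus tested, with equal effects on the dashed line. EBF1 and EBF2 lie below 0 on the y axis and above 0 on the x axis, and EXPA17 and AT5G04120 lie far to the left at -0.49 and -1.09.

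To place the changes beside the sequence, 250 bases before the annotated gene start are shown for EBF1 and EBF2, which fell without and rose with EIN3 and EIL1, for AT2G47550 and EXPA15, which changed in the same direction in both averages, and for CYP81D11, whose rise was called without EIN3 and EIL1 and not with them. The sequences are of the gene's strand, 5′ to 3′, from the RefSeq assembly TAIR10.1; the authors' files name TAIR10 and give no coordinates. Capitals mark the EIN3-type motif ATGTAC and the TGA-factor motif TGACG, each searched on both strands (GTACAT and CGTCA on the other) in all 5 windows. Matches of both strands of a motif can overlap.
EBF1, chr2:10850798-10851047, minus strand: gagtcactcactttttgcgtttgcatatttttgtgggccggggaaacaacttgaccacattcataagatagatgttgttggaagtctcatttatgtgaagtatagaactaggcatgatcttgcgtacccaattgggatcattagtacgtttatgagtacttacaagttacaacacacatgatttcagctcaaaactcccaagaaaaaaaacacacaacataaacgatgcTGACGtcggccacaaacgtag
EBF2, chr5:8797350-8797599, minus strand: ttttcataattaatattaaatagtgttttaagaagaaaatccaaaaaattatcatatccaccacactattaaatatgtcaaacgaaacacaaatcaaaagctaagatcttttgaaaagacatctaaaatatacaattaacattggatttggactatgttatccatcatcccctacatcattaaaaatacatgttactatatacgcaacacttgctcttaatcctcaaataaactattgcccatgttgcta
AT2G47550, chr2:19508679-19508928, plus strand: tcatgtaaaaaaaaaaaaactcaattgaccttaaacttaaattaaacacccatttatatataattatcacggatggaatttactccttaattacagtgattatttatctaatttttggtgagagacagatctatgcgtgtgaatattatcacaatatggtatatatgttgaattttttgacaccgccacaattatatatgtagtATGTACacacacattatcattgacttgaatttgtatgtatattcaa
EXPA15, chr2:918672-918921, minus strand: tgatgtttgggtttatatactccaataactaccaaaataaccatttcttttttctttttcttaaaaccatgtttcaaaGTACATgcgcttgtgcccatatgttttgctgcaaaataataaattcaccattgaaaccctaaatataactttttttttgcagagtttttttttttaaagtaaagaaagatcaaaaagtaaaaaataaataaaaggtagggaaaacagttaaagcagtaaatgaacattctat
CYP81D11, chr3:10790554-10790803, minus strand: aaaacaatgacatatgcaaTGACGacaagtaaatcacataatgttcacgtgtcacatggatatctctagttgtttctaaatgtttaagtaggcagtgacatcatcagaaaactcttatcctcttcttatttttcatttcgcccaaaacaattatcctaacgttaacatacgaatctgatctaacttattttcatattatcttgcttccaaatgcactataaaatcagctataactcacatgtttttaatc
ATGTAC was found at 46 bases before the start of AT2G47550 and at 172 bases before that of EXPA15, counted from the match's first base, and not in these windows of EBF1 and EBF2. Only exact matches were searched, so the windows may hold variants of the motif. Of 27443 windows of protein-coding genes 9.52% hold it, as do 10.7% of 717 windows of loci that rose without EIN3 and EIL1 and 9.6% of 1000 that fell. TGACG was found at 21 bases before the start of EBF1 and at 231 bases before that of CYP81D11, and it is in 18.6% of all windows, 20.6% of those that rose and 19.2% of those that fell. These shares are descriptions, and both motifs were about as frequent among called loci as among all.

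The expansin genes EXPB1, EXPA15 and EXPA17 fell, while the wall genes XTH33, XTH17, AT3G28550 and LRX2 rose. The hair expansin gene EXPA7, near 0 in untreated quadruple roots and described below, was called higher (2.09, edgeR adjusted p = 0.025). EXPB1 (AT2G20750), a beta-expansin of the kind that loosens cell walls, went from 40.4 and 37.3 to 19.9 and 21 CPM in ein3eil1 and from 34.5 and 34 to 20 and 21.3 CPM in the quadruple mutant. EXPA15 (AT2G03090), an alpha-expansin, went from 66.6 and 63.2 to 36.4 and 43.1 CPM and from 65.5 and 57.7 to 32.9 and 28.3 CPM. The groups did not overlap in either genotype, and the averaged falls were 0.83 ± 0.06 and 0.86 ± 0.082 (adjusted p = 3.5e-06 and 2.7e-05). EXPB1 fell further with EIN3 and EIL1, by 3.53 ± 0.07 (difference 2.70 ± 0.092), whereas the difference of EXPA15 was 0.14 (adjusted p = 0.39). EXPA17 (AT4G01630), another alpha-expansin, fell by 0.49 ± 0.082 without EIN3 and EIL1 and by 5.13 ± 0.11 with them, from 83.3 and 78.5 to 2.46 and 1.77 CPM in Col-0.

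The 12 largest falls by the rule for named genes, which asks for a mean of 5 CPM and no overlap in either genotype, were mostly genes of little-known function. The largest was AT2G15292, which the annotation gives no product: 23 and 18.5 CPM became 9.2 and 11.3 CPM in ein3eil1, and 19.6 and 23.4 CPM became 5.89 and 8.29 CPM in the quadruple mutant. Its fall of 1.31 ± 0.11 (adjusted p = 1.1e-05) was of the size seen with EIN3 and EIL1, with a difference of 0.01 (adjusted p = 0.99). AT5G04120, annotated as a phosphoglycerate mutase family protein, went from 61.6 and 56.1 to 36.8 and 28.2 CPM and from 75.3 and 101 to 32.2 and 38.3 CPM. Without EIN3 and EIL1 it fell by 1.09 ± 0.15, and with them by 5.94 ± 0.23. AT5G60520, annotated as a late embryogenesis abundant protein, fell by 0.91 ± 0.096 and 3.90 in turn. AT2G20724, AT1G10530, AT2G41810, AT2G13550, AT3G21680, AT4G27840 and AT4G28440 fell by 0.90 to 1.30. AT3G52700, at 0.95 ± 0.2, was the 1 of the 12 to lose its call, in 3 of 13 alternatives (adjusted p = 0.0723 without treated ein3eil1 replicate 1, 0.0795 without untreated ein3eil1 replicate 1 and 0.065 without untreated quadruple replicate 2).

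The ribonuclease gene RNS1 (AT2G02990), known from phosphate starvation, fell from 3.22 and 2.86 to 1.64 and 1.6 CPM in ein3eil1 and from 2.94 and 3.01 to 1.74 and 1.69 CPM in the quadruple mutant. The fall of 0.85 ± 0.14 (adjusted p = 0.0036) had an effect of -0.01 beside it with EIN3 and EIL1, and the difference of -0.84 was called (adjusted p = 0.0025). AT1G50060, annotated as a CAP family protein, fell by 0.80 ± 0.13 and had an effect of 0.02 with EIN3 and EIL1 (difference -0.82, adjusted p = 0.0023). Both genes kept their calls in all 13 alternatives. In the average with EIN3 and EIL1 neither was called.

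EXPB1, AT1G50060 and the rises at a clear level in all groups were picked by a rule added after the values had been seen, of at least 5 CPM in each of the 4 groups. The largest such rise was BT1 (AT5G63160), a BTB and TAZ domain protein, which went from 11.8 and 15.5 to 37.3 and 24.7 CPM in ein3eil1 and from 28.9 and 34.6 to 44.4 and 59.7 CPM in the quadruple mutant. BT1 rose by 0.94 ± 0.13 (adjusted p = 0.0011), against 0.13 ± 0.14 with EIN3 and EIL1, and the difference of 0.82 ± 0.19 was called (adjusted p = 0.0044). XTH33 (AT1G10550), a xyloglucan-remodelling wall enzyme, rose from 5.29 and 5.73 to 10.5 and 9.82 CPM and from 8.28 and 9.21 to 15.7 and 15.9 CPM. Its effect was nearly the same in both genotypes, 0.88 ± 0.12 and 0.85 ± 0.11, and the averaged rise of 0.87 ± 0.082 (adjusted p = 2.7e-05) differed from that with EIN3 and EIL1 by -0.28 (adjusted p = 0.083). AT3G28550, an extensin-like gene, was among the most abundant transcripts of the list. It stood at 2240 and 2360 CPM in untreated and 2660 and 2450 CPM in treated ein3eil1, and rose from 1230 and 873 to 2460 and 2640 CPM in the quadruple mutant, where the effect of 1.28 ± 0.13 differed from the 0.15 ± 0.12 of ein3eil1 (adjusted p = 0.00062).

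Genes of detoxification were 5 of the rises. Of 12 listed, 5 rose and 0 fell, against 3.32% of all loci that rose, with a median of 0.22 (0.32 in ein3eil1, 0.37 in the quadruple mutant and 0.19 with EIN3 and EIL1). CYP81D11 (AT3G28740), a cytochrome P450 known for its response to reactive chemicals, went from 78.3 and 86.9 to 141 and 105 CPM in ein3eil1 and from 88.9 and 94.9 to 127 and 192 CPM in the quadruple mutant. It rose by 0.68 ± 0.12 (adjusted p = 0.0038), and the effect of -0.03 with EIN3 and EIL1 differed from it by 0.71 (adjusted p = 0.0034). The glutathione transferases GSTU24 and GSTU25 rose by 0.52 ± 0.13 and 0.36 ± 0.088, the oxophytodienoate reductase OPR1 by 0.42 ± 0.1, and the glycosyltransferase UGT74E2 by 0.54 ± 0.11, calls lost in 5, 4, 3 and 2 of 13 alternatives (highest adjusted p = 0.148, 0.126, 0.124 and 0.0663). CYP72A13, another P450 gene, and UGT73B2, a flavonol glycosyltransferase gene, rose by 0.65 ± 0.11 and 0.63 ± 0.11 outside the list. In ein3eil1 replicate 1 of the treated libraries was the higher one for each of the 5 listed genes, and in the quadruple mutant replicate 2. The list's count was 1 without treated and 1 without untreated ein3eil1 replicate 1, 2 without treated quadruple replicate 2, and 3 without untreated ein3eil1 replicate 2. CYP81D11, CYP72A13 and UGT73B2 kept their calls throughout.

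A list of genes known to respond to sugar starvation and darkness had rises and no falls. Of 16 listed, 9 rose and 0 fell, against 3.32% of all loci that rose, with a median of 0.29, against 0.31 in ein3eil1, 0.26 in the quadruple mutant and 0.12 with EIN3 and EIL1. TPS11 (AT2G18700), a class II trehalose-phosphate synthase gene, went from 20.8 and 24.9 to 37.6 and 34.1 CPM and from 28.8 and 24.6 to 31.6 and 40.1 CPM. It rose by 0.54 ± 0.094 (adjusted p = 0.0046) and kept its call in all 13 alternatives, where the average with EIN3 and EIL1 gave -0.14 (difference 0.67, adjusted p = 0.001). TPS8, of the same class, rose by 0.30 ± 0.068, and the leucine breakdown genes MCCA and IVD and the aminotransferase gene BCAT2 by 0.29 ± 0.069, 0.34 ± 0.08 and 0.68 ± 0.15. The bZIP factor gene BZIP1 rose by 0.42 ± 0.12. Treatments of these genes did not overlap in either genotype, but TPS8, MCCA, IVD, BCAT2 and BZIP1 lost their calls in 3, 5, 4, 4 and 8 of 13 alternatives (highest adjusted p = 0.101, 0.135, 0.111, 0.096 and 0.172).

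Tested within each genotype, 1 of the 9 genes was called in ein3eil1, TPS11 (adjusted p = 0.034), and 6 in the quadruple mutant, TPS11, BCAT2, BZIP1, SEN1, BZIP11 and AKINBETA1. SEN1 (AT4G35770), a gene of dark-induced senescence, was at 4.07 and 5.73 CPM untreated and 5.53 and 4.9 CPM with ethylene in ein3eil1, and at 3.88 and 4.23 against 16.7 and 12.4 CPM in the quadruple mutant. The bZIP factor gene BZIP11 and AKINBETA1, which encodes a subunit of the energy-sensing kinase SnRK1, had effects of -0.12 and -0.13 in ein3eil1 and 0.71 and 0.81 in the quadruple mutant. For SEN1, BZIP11 and AKINBETA1 the difference between both genotypes was called (adjusted p = 0.0036, 0.00084 and 0.00021). Treatments of ein3eil1 overlapped for all 3 genes. The list's count was 1 without treated ein3eil1 replicate 1, 2 without untreated ein3eil1 replicate 1 and 3 without treated quadruple replicate 2, and 7 to 10 without any other library.

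**Figure D3:**
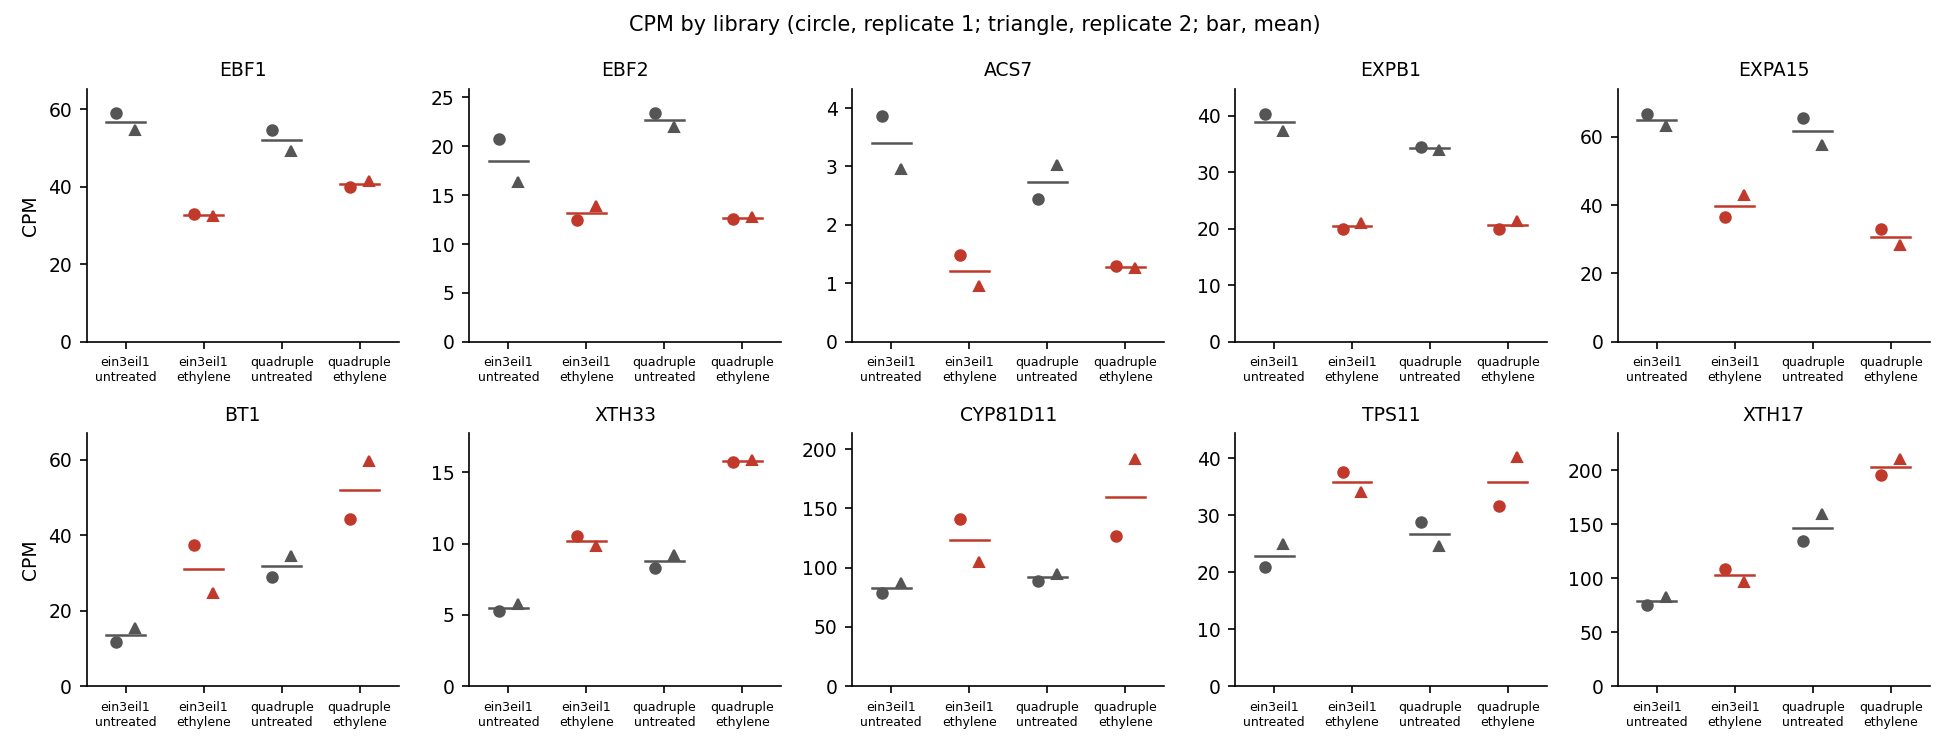
CPM in each of the 8 libraries for 10 genes, with ethylene-treated libraries in red and untreated ones in grey, circles for replicate 1, triangles for replicate 2 and bars for group means; quadruple is ein3eil1rhd6rsl1. In every panel both treated libraries lie on the same side of both untreated ones, in each genotype.

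The 12 largest rises by the rule for named genes were in root hair or wall genes near 0 in untreated quadruple roots. Each lost its call without treated replicate 1 of that mutant. FLA6 lost it in no other alternative, and XTH12 also without untreated quadruple replicate 2. The remaining genes lost it there too, as well as without treated and without untreated ein3eil1 replicate 1. Of 18 root hair specific genes 9 rose and 0 fell, and of 26 genes of root hair growth and wall 11 rose and 0 fell, against 3.32% of all loci that rose, with medians of 0.75 and 0.39. In untreated quadruple roots, which lack the hair factors, most were near 0. EXT10 (AT5G06640), an extensin-like gene outside both lists, was at 0.189 and 0.282 CPM there and at 16.3 and 0.444 CPM with ethylene, while ein3eil1 held 341 and 376 CPM untreated and 482 and 421 CPM with ethylene. RHS7 (AT1G54970), a proline-rich wall protein gene, had 252 reads in treated quadruple replicate 1 and 0 in replicate 2. EXPA7 (AT1G12560), the hair expansin, was at 0.0473 and 0.047 CPM untreated and 1.59 and 0.0592 CPM treated. In each case replicate 1 of the treated quadruple mutant stood above its 3 companions and replicate 2 lay near the untreated libraries. The rule for named genes adds little support here, as its mean of 5 CPM was reached through ein3eil1. In the quadruple mutant AT5G06630, another extensin-like gene, had 4 and 4 reads untreated and 374 and 4 treated, and EXPA7 2 and 2 against 55 and 2. At equal reads, replicate 2 was higher in CPM only because that library was smaller (34.2 M reads against 42.7 M and 43.6 M).

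That library is the one with photosynthesis transcripts at 2070 CPM, and whether both have a common source was not tested. For the whole list of 18 root hair specific genes the summed level was 32.0 CPM in it, 13.3 CPM in treated replicate 2 and 12.2 CPM in each untreated quadruple library, against 541 to 757 CPM in ein3eil1. The 26 growth and wall genes summed to 961 CPM in it, 997 CPM in treated replicate 2 and 923 and 809 CPM in the untreated quadruple libraries, so that this sum was not higher in it than in replicate 2. Without it, 1 of 18 root hair specific genes and 3 of 26 growth and wall genes were called, and the photosynthesis list, with 0 of 22 called, moved from a median of 0.41 to -0.30. Of the 69 loci that rose at least 2-fold, 61 were below 1 CPM in untreated quadruple roots, 49 of these were higher in treated replicate 1 than in replicate 2, and 16 of the 69 were still called without replicate 1. The counts of both lists also fell without untreated quadruple replicate 2, to 1 and 2, without treated ein3eil1 replicate 1, to 0 and 3, and without untreated ein3eil1 replicate 1, to 0 and 3. That of the growth and wall list was 6 without untreated ein3eil1 replicate 2.

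For genes with no read in both untreated quadruple libraries, the pooled reads of both treated quadruple libraries were set against 3 reads. Pooled in this way, FLA6 (AT2G20520), a fasciclin-like arabinogalactan protein gene, was at least 13.2-fold higher in the treated libraries. MRH6 was at least 7.87-fold higher, XTH26 at least 16.1-fold, RHS14 at least 11.6-fold and RHS15 at least 16.6-fold. RHS12 and RHS18, with 2 reads each untreated, had ratios of 32.3 (95% counting interval 8.5 to 274) and 31.1 (8.16 to 263), and RHS7 of 156 (42.9 to 1300). Replicate 2 contributed 2 or fewer of the treated reads of each of these genes. The pooled folds thus describe treated replicate 1 and do not bound the effect of ethylene. The averaged log2 fold changes of these genes depend on the small count added by the test and are not bounds. In ein3eil1, where the genes were well read, their effects were 1.09 ± 0.2 for FLA6, 0.41 ± 0.16 for MRH6, 0.33 ± 0.5 for EXT10 and 0.13 ± 0.22 for EXPA7. XTH26 (AT4G28850), a hair xyloglucan enzyme gene, went from 0.486 and 0.661 to 4.34 and 3.43 CPM in ein3eil1, an effect of 2.73 ± 0.44 that was called within that genotype (adjusted p = 0.013), as was that of FLA6 (adjusted p = 0.021). Without treated quadruple replicate 1 the averaged effects stayed at 3.48 for XTH26, 2.66 for FLA6 and 2.32 for MRH6, no longer called (adjusted p = 0.106, 0.082 and 0.161).

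**Figure D4:**
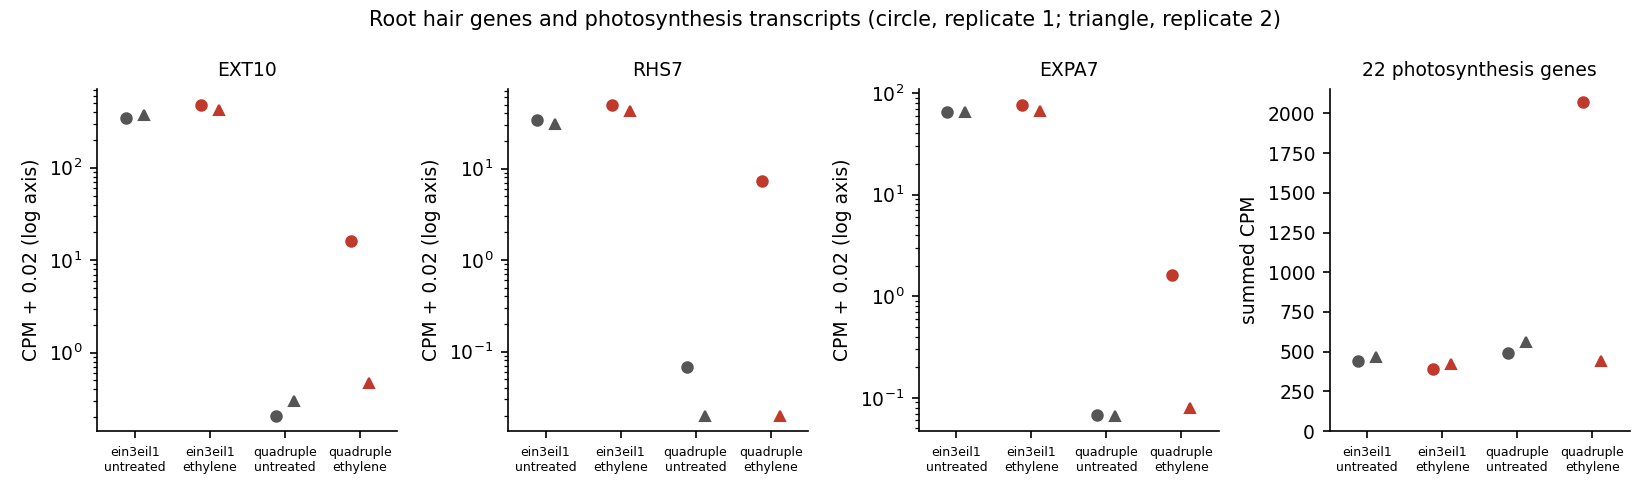
CPM of 3 root hair genes on a log axis (0.02 added so that 0 can be drawn) and the summed CPM of 22 photosynthesis genes on a linear axis, by library, with circles for replicate 1 and triangles for replicate 2; quadruple is ein3eil1rhd6rsl1. In all 4 panels treated quadruple replicate 1 lies far above treated replicate 2 and both untreated quadruple libraries.

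LRX2 and RHD2 were called hair genes with a clear level in both genotypes. LRX2 (AT1G62440), a leucine-rich repeat extensin gene of the hair wall, was at 51.6 and 52.4 CPM untreated and 54.7 and 52.3 CPM treated in ein3eil1, and rose from 44.1 and 31.2 to 69.6 and 72.7 CPM in the quadruple mutant. The averaged rise of 0.48 ± 0.089 (adjusted p = 0.0063) was kept in all 13 alternatives, and the effects of both genotypes differed (0.04 and 0.92, adjusted p = 0.0034). RHD2 (AT5G51060), the NADPH oxidase of hair tip growth, rose by 0.33 ± 0.078 with no overlap in either genotype, against -0.20 with EIN3 and EIL1 (difference 0.54, adjusted p = 0.0013), and lost the call in 5 of 13 alternatives (highest adjusted p = 0.102, without treated ein3eil1 replicate 1). Of the 7 hair bHLH factor genes 0 rose and 0 fell. RSL4 (AT1G27740), the factor that drives hair growth, was at 11.4 and 12.1 CPM untreated and 14.1 and 12.4 CPM treated in ein3eil1, and at 0.0473 and 0.047 against 0.464 and 0 CPM in the quadruple mutant, with an averaged effect of 1.2 ± 0.54 (adjusted p = 0.18). In Col-0 and rhd6rsl1 its averaged rise was 4.29 ± 0.27. RSL2 (AT4G33880), its paralog, had an effect of 0.44 ± 0.38 (adjusted p = 0.57).

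Hormone lists with large medians in the average with EIN3 and EIL1 had small ones without. Of 24 auxin response genes 2 rose and 0 fell, with a median of 0.09 against 1.02; the called shares of 8.33% here, 10.5% for cytokinin and 5.26% for auxin synthesis and transport lay near the 7.89% of all loci. IAA1 (AT4G14560), an auxin-induced repressor gene, rose from 6.14 and 5.62 to 8.06 and 9.37 CPM and from 5.37 and 6.88 to 8.61 and 7.9 CPM, by 0.50 ± 0.097 (adjusted p = 0.0081), where Col-0 and rhd6rsl1 gave 2.69 ± 0.094. IAA2, a close homologue, rose by 0.30 ± 0.072, against 1.72. Of 19 cytokinin genes tested 2 rose and 0 fell, with a median of 0.20 against 0.70: ARR8 rose by 0.29 ± 0.066, and IPT7, a cytokinin synthesis gene, by 0.43 ± 0.1 without EIN3 and EIL1, while it fell by 1.32 with them. ARR8 and IPT7 moved in the quadruple mutant and had effects of -0.03 and 0.05 in ein3eil1. ARR8, IPT7 and IAA2 each lost the call in 4 of 13 alternatives, with highest adjusted p-values of 0.102, 0.105 and 0.142, in each case without untreated ein3eil1 replicate 1. Of 19 genes of auxin synthesis and transport 1 rose, the efflux carrier gene PIN3 (0.21 ± 0.06), which lost the call in 8 of 13 alternatives (highest adjusted p = 0.169).

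Some genes changed in opposite directions in both averages. Of the 998 loci called in both, 56.7% of the calls without and 10.8% of the calls with EIN3 and EIL1, 337 rose in both, 492 fell in both, 128 rose without and fell with, and 41 fell without and rose with EIN3 and EIL1. XTH17 (AT1G65310), a root xyloglucan enzyme gene, rose from 75.3 and 82.6 to 108 and 96.8 CPM in ein3eil1 and from 134 and 159 to 195 and 210 CPM in the quadruple mutant, by 0.42 ± 0.077 (adjusted p = 0.0062), while it fell by 1.53 ± 0.079 with EIN3 and EIL1. It lost the call without treated (0.37, adjusted p = 0.0574) and without untreated ein3eil1 replicate 1 (0.38, adjusted p = 0.0606). AT3G18450, AT5G04970, scpl31 and UMAMIT14 likewise rose without EIN3 and EIL1, by 0.22 to 0.51, and fell with them, by 1.26 to 3.71. Each of these 4 lost the call in 4 to 8 of 13 alternatives (highest adjusted p = 0.177, 0.155, 0.102 and 0.131). In the same direction but far smaller, AT2G47550, an invertase and pectin methylesterase inhibitor family gene, rose from 7.91 and 8.28 to 11.1 and 10.7 CPM and from 8.1 and 5.9 to 11.8 and 10.4 CPM, by 0.55 ± 0.1 against 3.39 ± 0.094.

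Of the 706 called loci whose averages differed, 407 had opposite signs, 231 a smaller effect of the same sign and 68 a larger one without EIN3 and EIL1. Among the loci called without EIN3 and EIL1, 762 were not called with them, and at 305 of these the difference was called. A call in one average and not in the other is thus shown as a difference for a minority of them.

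Against the 7.89% called over all loci, the other lists ranged from 0 members called to 27.3%. Of 22 clock genes 2 rose and 3 fell (22.7%). The median of the clock list was 0.04. TOC1 and ELF3 rose by 0.30 ± 0.079 and 0.37 ± 0.082. PRR9, RVE7 and CCR2 fell by 0.84 ± 0.17, 0.28 ± 0.082 and 0.26 ± 0.076. With EIN3 and EIL1 the effects of these 5 genes were 0.24, 0.07, -0.91, -0.31 and -0.23, in the order named. TOC1, ELF3, PRR9, RVE7 and CCR2 lost their calls in 5, 3, 2, 9 and 8 of 13 alternatives, all 5 without treated and without untreated ein3eil1 replicate 1, with highest adjusted p-values of 0.16, 0.0852, 0.0612, 0.203 and 0.225. Of 17 cell cycle genes 2 fell, CDKB1;1 by 0.38 ± 0.083 and PCNA1 by 0.30 ± 0.084, calls lost in 4 and 8 of 13 alternatives (highest adjusted p = 0.0868 and 0.16). Of 22 endodermis and suberin genes 3 rose, CASP5, SCR and KCS2, against 14 that fell with EIN3 and EIL1; these calls were lost in 8, 10 and 6 of 13 alternatives (highest adjusted p = 0.278, 0.205 and 0.186). Of 9 flavonoid genes tested 1 fell, CHS, the first enzyme of the pathway (0.52 ± 0.11), which rose by 0.90 with EIN3 and EIL1 and lost its call in 4 of 13 alternatives (highest adjusted p = 0.0835). Of 20 touch genes tested 1 rose, MPK3, and 2 fell, TCH2 and CBF2 (15.0%), calls lost in 10 of 13, 5 of 13 and 6 of 12 alternatives. Among 20 phosphate genes 1 rose, PHT1;2, a call lost in 7 of 13, and 1 fell, RNS1. The 11 gibberellin and brassinosteroid genes had 1 rise, GA2OX8, and 2 falls, DWF4 and CPD (27.3%), calls lost in 7 of 12, 8 of 13 and 6 of 13. From 15 abscisic acid genes tested 1 rose, ABF3, a call lost in 8 of 13. In the lists of iron (26 tested), nitrate (16), hypoxia (16), jasmonate (13), heat shock (9), vascular and root cap (16) and epidermal patterning genes (13), 0 were called.

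**Figure D5:**
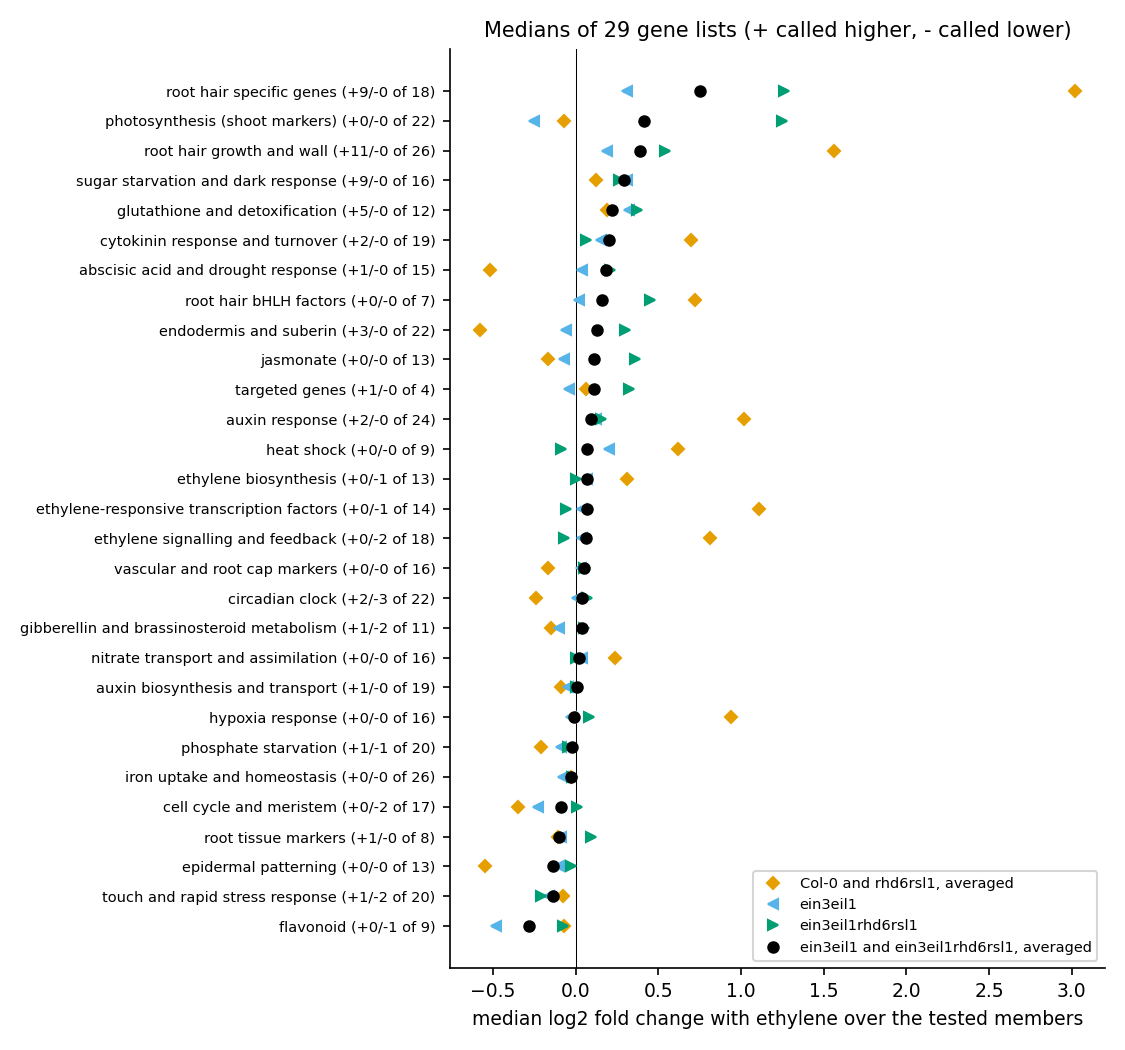
Median log2 fold change over the tested members of each of 29 lists, in the averaged effect without EIN3 and EIL1 (black), in each of its genotypes (blue and green) and in the average over Col-0 and rhd6rsl1 (orange); the counts give members called higher and lower without EIN3 and EIL1. The ethylene, auxin, cytokinin and hypoxia lists have orange medians of 0.70 to 1.11 (0.31 for biosynthesis, -0.09 for auxin synthesis and transport) and black medians of -0.01 to 0.20.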

How the data were processed

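The authors deposited, per the file headers, read counts per transcript model with RPKM values (reads per kilobase and per M reads of the header total). The submitters' processing notes name BWA 0.7.7 and the build TAIR10. No source used here names the counting tool or says whether it used strand, so overlapping genes may share reads. RPKM was recomputed from the deposited counts as a check and not used further. Counts of 39640 models were summed to 33518 loci. edgeR 4.0.16 in R 4.3.3 (TMM scaling, filterByExpr, quasi-likelihood test, 8 group means over all 16 libraries) gave log2 fold changes and p-values, adjusted by Benjamini-Hochberg over 22304 loci. The ± values are approximate standard errors, the size of the log2 fold change divided by the square root of the test's F statistic. For genes near 0 in a group they are not reliable. That of FLA6 was 0.41 for the difference of both averages and 0.73 for the average without EIN3 and EIL1. Every adjusted p in the text is from this fit or a named alternative, and a call is an adjusted p below 0.05. With 2 replicates a group, p-values measure the spread between these libraries. DESeq2 1.42.0 was an alternative. The code was tested on simulated data. Named genes met a rule on call, level of 5 CPM and non-overlap, or were called list members. The members and lists were chosen with earlier results of these data known. Intervals cover counting error only.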

Additional observations from a re-analysis of the deposited data

Results flagged for a closer look

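Effects that differed between groups by a test of the difference itself are given here as values, on the log2 scale. The effects of ein3eil1 and ein3eil1rhd6rsl1 differed at 3791 loci, in a contrast where the file letters cannot be told apart from RHD6 and RSL1. Effect in ein3eil1 minus effect in ein3eil1rhd6rsl1 was -6.08 for FLA6, -6.02 for MRH6, -5.32 for AT5G06630, -4.80 for EXT10, -4.36 for RHS12, -4.32 for RHS18, -4.25 for EXT13, -3.92 for EXPA7, -2.26 for RHS19 and -1.66 for AT5G04960, hair and wall genes that are near 0 in untreated quadruple roots. Among genes with a clear level it was 1.35 for AT2G20724, 0.79 for AT3G21680, 1.15 for AT4G28440, -1.13 for AT3G28550 and -0.48 for AT5G57340.

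The averaged effect without EIN3 and EIL1 minus that with them was positive for falls that were smaller without, at 4.85 for AT5G04120, 4.64 for EXPA17, 4.01 for AT3G59370, 2.99 for AT5G60520, 2.70 for EXPB1, 2.21 for AT3G21680, 1.48 for AT2G41810 and 0.67 for AT2G20724, and at 3.01 for AT1G78230. For genes called in opposite directions it was 4.18 for AT3G18450, 2.77 for AT5G04970, 1.95 for XTH17, 1.86 for scpl31, 1.75 for UMAMIT14, 1.23 for AT3G28550 and -2.1 for EBF2. Rises that were smaller without gave -2.84 for AT2G47550, -2.77 for AT5G04960, -2.19 for IAA1, -2.17 for UGT76D1, -2.14 for AT5G62280, -1.81 for RHS19 and -0.82 for AT5G57340. It was 0.82 for BT1, 0.71 for CYP81D11, 0.64 for AT1G21680, 0.57 for AT1G76520, 0.55 for UGT73B2, 0.52 for CYP72A13 and -0.82 for AT1G50060.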

How the results depend on the processing

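The count of 1760 calls without EIN3 and EIL1 became 1748 with DESeq2 size factors, 2440 with DESeq2, 3056 with no filter on low counts, 1023 when its groups were compared alone, and 209 to 4145 when 1 library was left out. The replicate block gave 1555. Same-numbered replicates of these groups deviated with correlations of -0.063 to -0.012 over 6 pairs of groups, and of -0.08 to 0.21 over all pairs in the series. Such values cannot show whether same-numbered replicates were handled together. For ein3eil1 the 139 calls became 523 with DESeq2, 958 with no filter, 1279 alone and 16 to 69 with a library left out. For ein3eil1rhd6rsl1 the 5323 calls became 2602 alone and 2745 to 6075 with a library left out. The difference between both genotypes ranged from 1477 to 4918 calls. Left-out libraries gave 1 to 10 calls in the sugar starvation list, 1 to 6 in the detoxification list, 0 to 9 among root hair specific genes and 2 to 12 in the hair growth list, which had 7 when groups were compared alone. Without treated quadruple replicate 1 the signs of LRX1 (-0.45, highest 2.15), XTH14 (-0.21, highest 2.22), RHS7 (-1.27, highest 5.32) and RSL4 (-1.89, highest 1.69) reversed. Of 104 called named genes 32 kept the call in all 13 alternatives. The causes were not tested. Low counts of hair genes in the quadruple mutant limit what their folds show.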
